A study of Homo sapiens with 4 samples.

Results

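Matrix metalloproteinases (MMPs), tissue inhibitors of metalloproteinases (TIMPs) and the urokinase pair were examined as 9 genes of the 33538 listed in single-cell RNA sequencing of the HCEC 1CT line, colonic epithelial cells of human origin that were made immortal with TERT and CDK4. The members were taken by symbol and are MMP1, MMP2, MMP3, MMP14, TIMP1, TIMP2, TIMP3, PLAU and PLAUR. Cells of all groups carried the immortalising genes, were grown with EGF, hydrocortisone, insulin and low serum, and were selected with puromycin after transduction. The 4 groups were shScr and shAPC at day 3 and shScr and shAPC at day 7, and a run of 4 values below is given in that order unless labelled. Here shAPC is an shRNA against the tumour suppressor APC, shScr is a scrambled control and the day counts from transduction. With 1 library in each group, differences have no replicate check, no p-value is given, and every 95% interval covers counting error only.

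MMPs are zinc-dependent proteases that cut collagens, fibronectin and other matrix proteins, and most are secreted as inactive precursors. TIMPs bind and block active MMPs, and TIMP2 also takes part in the activation of the MMP2 precursor by the membrane protease MMP14. Urokinase (PLAU), bound to its surface receptor PLAUR, turns plasminogen into plasmin, which cuts matrix and can activate MMP precursors.

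The values are UMIs, that is distinct RNA molecules counted per gene and cell barcode at the 3′ end of the transcript. The UMIs of all kept cells in a library were added up and scaled by the library total to CPM (UMIs of the gene for every 1e+06 UMIs). A cell was kept if it had 200 genes or more, 500 UMIs or more and under 5% mitochondrial UMIs, which left 788 to 2600 cells and 28451455 to 39797418 UMIs per library. These limits together removed 51.3% of the shAPC day 7 barcodes and 24.1% to 28.8% of the others, and the median kept cell of shScr day 7 held 1330 UMIs against 21029.5 to 49685.5 elsewhere. APC, the target of the shRNA, was at 16.1 CPM in shScr day 3, 5.52 in shAPC day 3, 19.1 in shScr day 7 and 6.61 in shAPC day 7, so both shAPC libraries held 34.4% and 34.6% of the level of the control of the same day. Of the 10 epithelial markers 4 to 5 had more than 3 UMIs in a library, with KRT8 at 9.57 to 19.4 CPM, CLDN7 at 6.26 to 16.9, KRT18 at 3.02 to 7.13 and KRT19 at 2.34 to 5.72. EPCAM, CDH1, CDX2, VIL1 and KRT20 had at most 3 UMIs in every library, and the list summed to 25.1 to 49.4 CPM. All 10 fibroblast and mesenchymal markers had more than 3 UMIs and summed to 6068 to 8053 CPM, led by VIM (4010 to 5303) and COL1A1 (927 to 1519). The libraries thus lacked several defining epithelial markers and held keratins at a low level. Of the 6 macrophage and leukocyte markers 1 to 4 had more than 3 UMIs, with the lysosomal CD68 at 17.4 to 29.6 CPM, CD14 at 0.105 to 0.715, and PTPRC and LYZ at 3 UMIs or fewer. Of the 4 endothelial markers 0 to 2 had more than 3 UMIs (KDR up to 6 and VWF up to 4), and PECAM1 and CDH5 had at most 3 in every library. Of the 5982 kept cells, 35 barcodes occurred in more than 1 library, 19 of them in both day 3 libraries. Counting was done with Cell Ranger 3.0.2 for the shScr libraries but 3.0.0 for the shAPC libraries per the file headers, so the software version and the shRNA cannot be told apart.

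**Figure D1:**
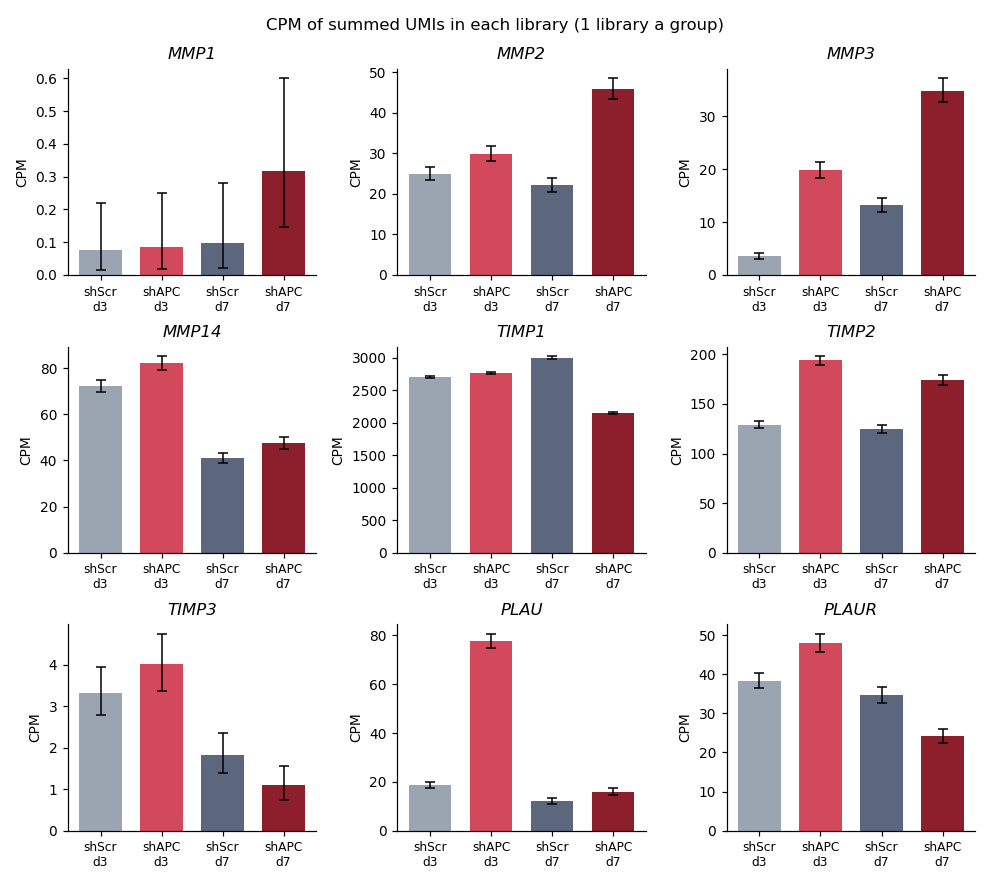
CPM of each member in the 4 libraries. Bars are the CPM of 1 library, each panel has its own axis from 0, and the error bars are exact Poisson 95% intervals. PLAU stands out at 77.6 CPM in shAPC day 3, MMP3 is higher in shAPC at both days, and MMP2 is highest in shAPC day 7.

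The question was how these genes differ after APC knockdown at each day and between the days. Leaving aside MMP1 with its 3 to 9 UMIs, the secreted proteases MMP3 and PLAU differed most at day 3 and MMP3 and MMP2 at day 7. The inhibitors TIMP1 and TIMP2 differed by less than 2-fold in every comparison. The low inhibitor TIMP3 was at a log2 ratio of -1.88 over time in shAPC, from 140 and 31 UMIs. A gene was called when its ratio reached 2-fold on log2(CPM + 1) and it had at least 20 CPM in 1 of the 2 libraries. At day 3, 1 of the 6 members above that level (PLAU) was called higher in shAPC and none lower, where 3.86% of all 5175 such genes were called higher and 0.425% lower. At day 7, 2 of 6 members (MMP2 and MMP3) were called higher and none lower, beside 0.787% higher and 1.77% lower of 4573 genes. From day 3 to day 7 none of 5 members was called in shScr, where 0.329% of 4556 genes were called higher and 0.79% lower. In shAPC 1 of 7 members (PLAU) was called lower and none higher, beside 5.78% lower and 0.058% higher of 5176 genes. MMP3 at day 3 lay just under the minimum level with 19.8 CPM, and PLAU at day 7 was under it too. Over time in shScr both were under it, with MMP3 at 3.57 CPM at day 3 and 13.2 at day 7 (log2 ratio 1.89). MMP1 and TIMP3 were under 5 CPM in every library.

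The median log2 ratio of the members above the minimum was 0.28 at day 3, equal to the 0.28 of all genes above it. It was 0.34 at day 7 against -0.10 for all genes, -0.14 over time in shScr against 0.05, and -0.36 over time in shAPC against -0.34. TMM scaling moved the day 3 ratios by -0.38 and the shAPC day 7 against day 3 ratios by 0.30, and DESeq2 size factors moved them by -0.36 and 0.31. Ratios of single members near 0 at day 3 therefore turned sign with the scaling, and this is stated beside them.

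**Figure D2:**
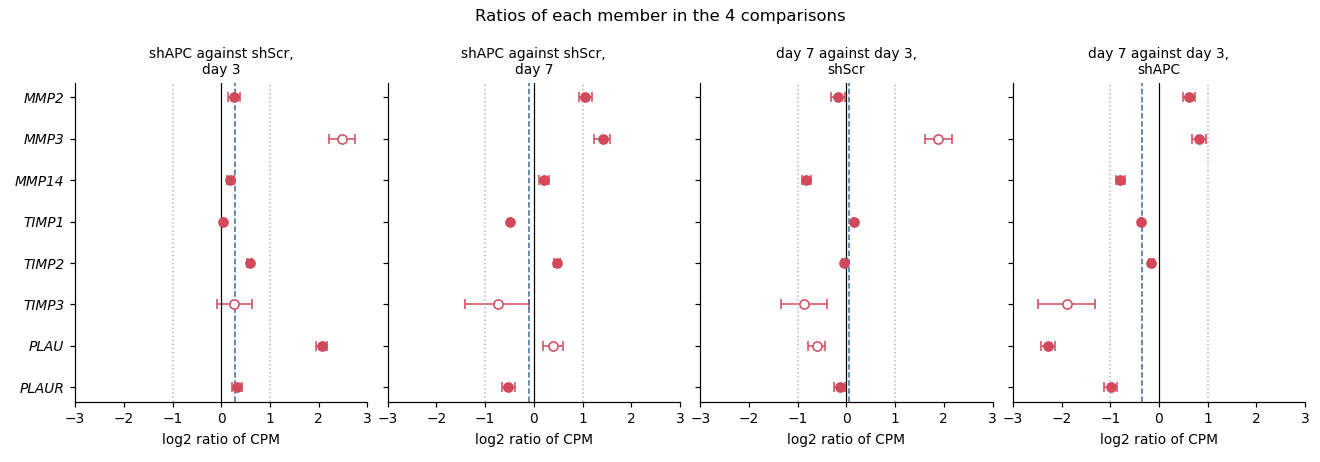
Log2 ratio of CPM for 8 members in the 4 comparisons, with exact conditional binomial 95% intervals. Filled points reached 20 CPM in either library and open points did not, the dashed line is the median of all genes and the dotted lines mark 2-fold. PLAU at day 3 (2.06), MMP3 at day 3 (2.47) and day 7 (1.41) and MMP2 at day 7 (1.06) lie to the right of the 2-fold lines. MMP3 over time in shScr (1.89) does so too. PLAU (-2.28) and TIMP3 (-1.88) over time in shAPC lie to the left of them.

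PLAU (ENSG00000122861) is a protein-coding gene on the forward strand of chr10:73909177-73917496 (GRCh38, GENCODE v44). It counted 739 UMIs in shScr day 3, 2710 in shAPC day 3, 380 in shScr day 7 and 454 in shAPC day 7. These are 18.6, 77.6, 12.2 and 16.0 CPM. The shAPC day 3 library was the high one and the other 3 lay between 12.2 and 18.6 CPM. The log2 ratio of shAPC to shScr was 2.06 (1.94 to 2.18), or 4.18-fold, at day 3 and 0.39 (0.19 to 0.59) at day 7. From day 3 to day 7 the log2 ratio was -2.28 (-2.43 to -2.14) in shAPC and -0.61 (-0.79 to -0.43) in shScr. The difference between the days of the shAPC to shScr ratio was -1.67 (-1.90 to -1.44).

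The PLAU molecules of shAPC day 3 lay in few cells. The 1% of cells with the highest PLAU share (8 cells) held 1017 of the 2710 UMIs (37.5%), and 1 cell alone held 502 (18.5%) among its 136908 UMIs. Leaving out the highest 1% of cells in each library gave 49.0 CPM in shAPC day 3 and 16.6 in shScr day 3, a log2 ratio of 1.56 in the day 3 comparison. The cell with 502 PLAU UMIs carried a barcode that was also kept in another library. The 21 shAPC day 3 cells with such a barcode held 699 PLAU UMIs, and without shared barcodes the day 3 ratio was 1.71 and the shAPC ratio over time -1.92. No other ratio of MMP2, MMP3, MMP14, TIMP1, TIMP2, TIMP3 or PLAUR moved by more than 0.06 in these 28 values.

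**Figure D3:**
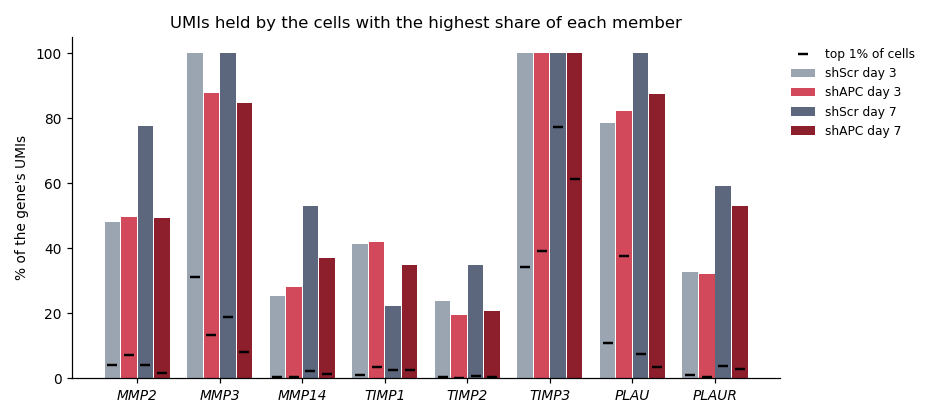
Share of each member's UMIs (%) held by the 10% of kept cells with the highest share of that member (bars) and by the highest 1% (black dashes), by library. In shAPC day 3 the highest 1% of cells held 37.5% of the PLAU UMIs but 0.478% of the PLAUR UMIs. Where fewer than 10% of cells had a UMI, the bar is at 100%.

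Before thinning, most PLAU molecules of shAPC day 3 lay in cells that also held ATF3, a stress-induced transcription factor. The 130 cells with an ATF3 UMI held 24.6% of all UMIs of that library but 70.0% of the PLAU UMIs, and PLAU was at 221 CPM (211 to 231) in them against 30.8 (28.7 to 33.0) in the 658 cells without. With every cell thinned to 2000 UMIs, since deeper cells more often show an ATF3 UMI, PLAU was at 275 CPM (137 to 492) in 20 cells with an ATF3 UMI and 49.0 (37.7 to 62.6) in 653 without. The first value rests on 11 PLAU UMIs, found in 20% of those 20 cells, and the cells without ATF3 held the other 64 UMIs. In the thinned cells of the other 3 libraries 2 to 8 held ATF3 and none of these had a PLAU UMI. At day 7, unthinned, PLAU was at 40.5 against 10.2 CPM in shScr and 49.7 against 14.3 in shAPC, from 81 and 67 UMIs in the ATF3 cells. In shScr day 7, 1 cell alone held 51 of the 380 PLAU UMIs, and whether it held ATF3 was not examined. In shScr day 3, with 35 ATF3 cells, the values were 17.0 and 18.6 CPM and their intervals overlapped.

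Leaving out all cells with an ATF3 UMI, without thinning, was an alternative chosen after the data were seen. It gave a day 3 log2 ratio for PLAU of 0.72 (0.58 to 0.87), or 1.65-fold, which is under the 2-fold limit. The cells left out held 24.6% of all UMIs in shAPC day 3 but 4.87% in shScr day 3. The shAPC ratio over time was then -1.11 (-1.29 to -0.93). The day 7 ratio was 0.48 (0.26 to 0.70). Thinned cells without an ATF3 UMI held PLAU at 49.0 CPM (37.7 to 62.6) in shAPC day 3. In shScr day 3 the value was 13.4 (8.57 to 19.9). Thinning leaves ATF3 unseen in many cells, with 20 cells showing it in shAPC day 3 against 130 unthinned. ATF3 itself was at 1.03, 44.7, 15.4 and 3.37 CPM.

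**Figure D4:**
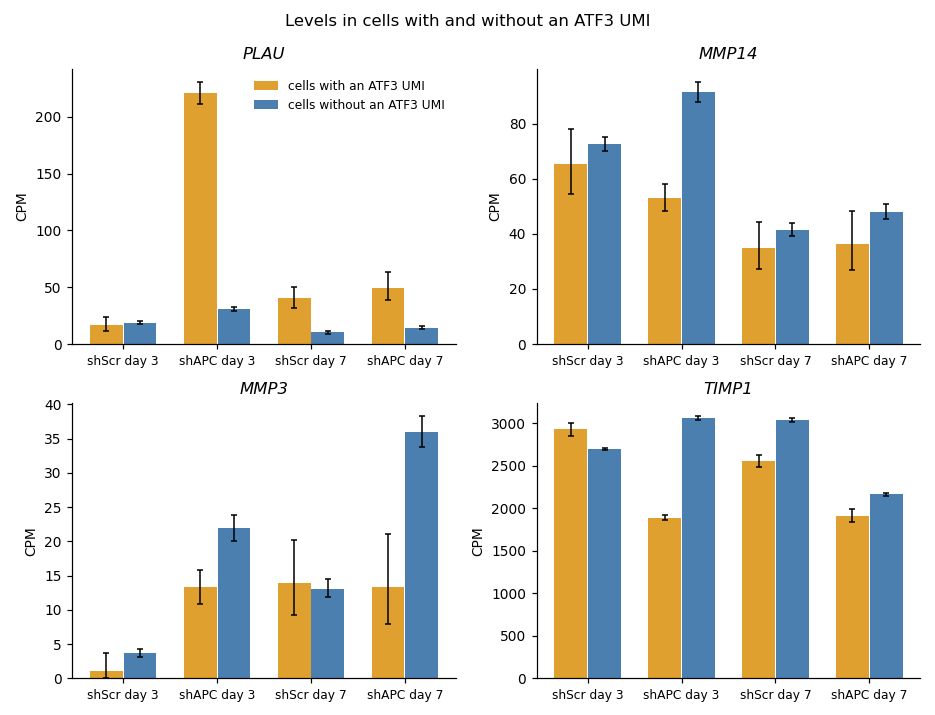
CPM of PLAU, MMP14, MMP3 and TIMP1 in cells with an ATF3 UMI (orange) and without (blue), by library, with exact Poisson 95% intervals and axes from 0. In shAPC day 3, before thinning, PLAU is at 221 against 30.8 CPM, while MMP14, MMP3 and TIMP1 are lower in the cells with ATF3.

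Before thinning, most other members were lower or alike in the cells with ATF3. In shAPC day 3, MMP14 was at 53.0 CPM in the ATF3 cells and 91.5 in the rest, MMP3 at 13.3 and 21.9, and TIMP1 at 1887 and 3062. TIMP2 was at 154 and 207 CPM, and PLAUR at 46.3 and 48.4 with overlapping intervals. MMP2 was higher in the ATF3 cells, at 37.3 against 27.5 CPM, and TIMP3 was at 4.89 and 3.72 with overlapping intervals. Without the ATF3 cells, the log2 ratio at day 3 of MMP3 was 2.57, that of MMP14 0.33 and that of TIMP1 0.18.

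PLAUR (ENSG00000011422), the urokinase receptor, lies on the reverse strand of chr19:43646095-43670547. It counted 1523, 1673, 1083 and 687 UMIs, or 38.3, 47.9, 34.7 and 24.1 CPM. The shAPC library was the higher one at day 3 and the lower one at day 7. At day 3 shAPC differed from shScr by a log2 ratio of 0.32 (0.22 to 0.42), against -0.52 (-0.66 to -0.38) at day 7, and the day 3 value turned to -0.06 with TMM scaling. Over time PLAUR was at -0.99 (-1.12 to -0.86) in shAPC and -0.14 (-0.26 to -0.03) in shScr. Per 100 PLAUR UMIs the libraries held 48.5, 162, 35.1 and 66.1 PLAU UMIs in the same order. The ratio of summed PLAU to PLAUR UMIs was thus higher in shAPC at both days, and no protein was measured. In shAPC day 3, 8 cells held 37.5% of the PLAU UMIs.

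Sequence upstream of the start sites was read for the 5 members that the RefSeq promoter table (GRCh38.p14) held, in 6 windows of 250 bases, and searched on both strands for the AP-1 motif TGANTCA and the TCF/LEF motif CTTTGAT, which do not overlap each other. The motifs were chosen because AP-1 is the known regulator of several of these genes and TCF/LEF factors act downstream of APC loss. AP-1 matched in 1 of the 6 windows, that of PLAUR, and in 6.57% of all 35116 windows of the table. TCF/LEF matched in none of the 6 and in 2.26% of all. The PLAUR match is shown with 10 bases on each side (chr19:43670339-43670365, reverse strand) and the motif in capitals. It starts 186 bases before the start site, and 1 longer annotated transcript of PLAUR covers the window. The PLAU stretch (chr10:73910882-73911103, forward strand) is shown because PLAU had the highest called ratio at day 3. It lies within the annotated span of PLAU and held no exact match of either motif. The other PLAU window (chr10:73910360-73910609) held none either.
PLAUR: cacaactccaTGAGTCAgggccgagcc
PLAU: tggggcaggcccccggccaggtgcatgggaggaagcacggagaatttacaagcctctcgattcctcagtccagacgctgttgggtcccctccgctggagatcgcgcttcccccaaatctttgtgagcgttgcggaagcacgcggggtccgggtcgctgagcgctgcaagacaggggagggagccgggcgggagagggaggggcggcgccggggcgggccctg
A match describes letters and no binding was measured. The windows of MMP14, TIMP1 and TIMP3 held no exact match of either motif, and near matches were not searched. MMP1, MMP2, MMP3 and TIMP2 were not searched here.

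MMP3 (ENSG00000149968), stromelysin, cuts many matrix proteins and can activate other MMP precursors. It lies on the reverse strand of chr11:102835801-102843609. It counted 142 UMIs in shScr day 3, 691 in shAPC day 3, 412 in shScr day 7 and 994 in shAPC day 7, or 3.57, 19.8, 13.2 and 34.9 CPM. The order of the 4 libraries had no overlapping intervals, with shAPC above shScr at each day and day 7 above day 3 for each shRNA. The log2 ratio of shAPC to shScr was 2.47 (2.21 to 2.74), or 5.54-fold, at day 3 and 1.41 (1.24 to 1.57), or 2.65-fold, at day 7. Over time it was 1.89 (1.61 to 2.17) in shScr and 0.82 (0.68 to 0.96) in shAPC. Leaving aside MMP1, MMP3 had the highest ratio over time of the members for both shRNAs, and the shAPC to shScr ratio differed between the days by -1.07 (-1.37 to -0.76).

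An MMP3 UMI was found in few cells of any library. After thinning to 2000 UMIs, a UMI was found in 0.89% of cells in shScr day 3 (95% exact binomial interval 0.385 to 1.75), 2.97% in shAPC day 3 (1.82 to 4.55), 1.92% in shScr day 7 (1.22 to 2.87) and 4.97% in shAPC day 7 (3.75 to 6.43). The intervals of shScr and shAPC did not overlap at either day in these cells. Thinning left out the kept cells under 2000 UMIs, 1402 of 2600 in shScr day 7 and 391 of 1478 in shAPC day 7. At day 3 it left out 217 of 1116 in shScr and 115 of 788 in shAPC. Unthinned, the shares were 6.63%, 19.9%, 8.27% and 18.9%. These are shares of cells with a UMI and not of cells expressing the gene, since a line holds no cell type without MMP3 to give the share from free RNA, whose part was not tested. The 10% of cells with the highest share held 84.6% to 100% of the MMP3 UMIs of their library.

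At day 7 the shallow cells carried more MMP3 per UMI than the deep ones. In cells under 2000 UMIs MMP3 was at 118 CPM in shScr day 7 and 173 in shAPC day 7, against 9.54 and 33.2 in cells of 2000 UMIs or more. The same held in shScr day 3, at 27.5 CPM (10.1 to 59.8, from 6 UMIs) against 3.44 (2.88 to 4.06). In shAPC day 3 the intervals overlapped, at 24 (4.96 to 70.2, from 3 UMIs) against 19.8 (18.3 to 21.3). The shallow cells held 124 of the 412 MMP3 UMIs of shScr day 7 and 60 of the 994 of shAPC day 7. The shScr difference over time was therefore smaller in the deep cells, at 3.44 CPM at day 3 and 9.54 at day 7, against 3.57 and 13.2 in all kept cells. With every cell weighted equally (the mean over cells of CPM) the day 7 log2 ratio was 0.27 and no longer reached 2-fold, and with cells of at least 2000 genes alone it was 1.87. The barcodes removed by the limits held MMP3 at 4.22, 60.2, 31.0 and 59.7 CPM. With all deposited barcodes the ratios were 2.80 at day 3 and 1.34 at day 7.

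**Figure D5:**
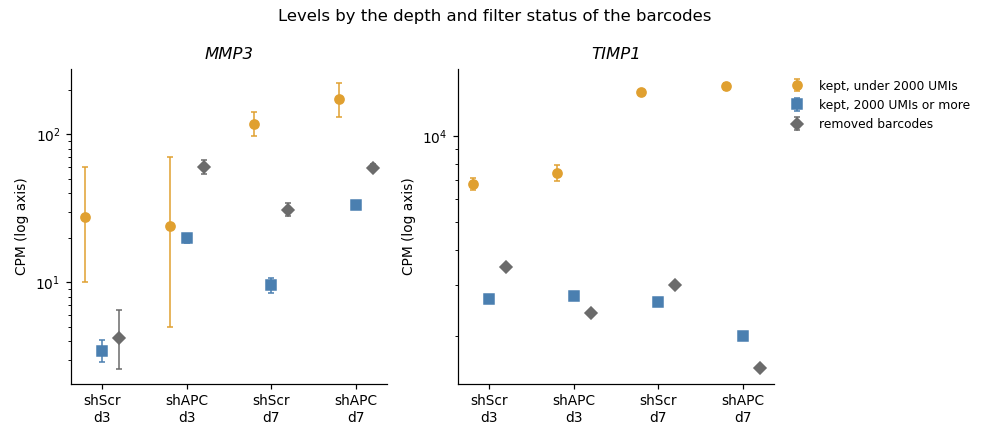
CPM on a log axis of MMP3 and TIMP1 in kept cells under 2000 UMIs, kept cells of 2000 UMIs or more and barcodes removed by the limits, by library, with exact Poisson 95% intervals. At day 7 the shallow cells lie above the deep ones for both genes, at 14218 against 2615 CPM for TIMP1 in shScr.

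MMP1 (ENSG00000196611), interstitial collagenase, lies on the reverse strand of chr11:102789401-102798160, 37.6 kb from MMP3. It counted 3, 3, 3 and 9 UMIs, so it was at or near the limit of detection at this depth. The day 7 ratio of 3.29-fold had an interval from 0.822 to 18.9. In shAPC day 7, 7 of the 9 MMP1 UMIs lay in 3 of the 30 cells with the highest MMP3 share. The 30 such cells of each library, chosen for MMP3, held 2.08 CPM of MMP1 in shScr day 7 and 8.57 in shAPC day 7, against 0.0673 and 0.0366 in the other cells of 2000 UMIs or more, from 1 and 7 UMIs in the high cells. In shAPC day 7 a single cell held 5 of the 9 MMP1 UMIs (55.6%).

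MMP2 (ENSG00000087245), gelatinase A, lies on the forward strand of chr16:55389700-55506691. It counted 992, 1044, 691 and 1308 UMIs, or 24.9, 29.9, 22.1 and 46.0 CPM. Only the shAPC day 7 library lay above 30 CPM. The log2 ratio was 0.26 (0.13 to 0.39) at day 3, which turned to -0.12 with TMM scaling, and 1.06 (0.92 to 1.19), or 2.08-fold, at day 7. The difference between the days was 0.79 (0.61 to 0.98). Over time MMP2 was at 0.62 (0.50 to 0.74) in shAPC and -0.17 (-0.31 to -0.03) in shScr.

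The share of thinned cells with an MMP2 UMI was 4.34%, 3.27%, 4.17% and 7.64%. The removed barcodes held more MMP2 than the kept cells in every library, at 53.2, 43.3, 41.0 and 90.0 CPM. The day 7 ratio was 1.27 with all deposited barcodes and 0.51 as a mean over cells, which is under 2-fold.

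MMP14 (ENSG00000157227), the membrane-bound MMP that activates the MMP2 precursor, lies on the forward strand of chr14:22836560-22849041. It counted 2874, 2867, 1280 and 1350 UMIs, or 72.2, 82.0, 41.0 and 47.4 CPM. Both day 7 libraries lay below both day 3 libraries, at log2 ratios over time of -0.82 (-0.91 to -0.72) in shScr and -0.79 (-0.88 to -0.70) in shAPC. Relative to the median of all genes, MMP14 was at -0.85 over time in shScr but -0.44 in shAPC. The shAPC to shScr ratio was 0.18 (0.11 to 0.26) at day 3, turning to -0.20 with TMM scaling, and 0.21 (0.10 to 0.32) at day 7. These ratios differed between the days by 0.03 (-0.11 to 0.16).

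TIMP2 (ENSG00000035862) lies on the reverse strand of chr17:78852977-78925387. It counted 5138, 6770, 3913 and 4940 UMIs, or 129, 194, 125 and 174 CPM. Both shAPC libraries lay above both shScr libraries, and the intervals of the 2 shScr libraries overlapped. At day 3 shAPC differed from shScr by a log2 ratio of 0.59 (0.53 to 0.64), against 0.47 (0.41 to 0.53) at day 7. After thinning, 21.4% and 19.4% of shScr cells and 29.7% and 28.5% of shAPC cells at day 3 and day 7 had a TIMP2 UMI. MMP2 UMIs per 100 TIMP2 UMIs were 19.3, 15.4, 17.7 and 26.5, and MMP14 UMIs per 100 TIMP2 UMIs were 55.9, 42.3, 32.7 and 27.3. Relative to TIMP2, MMP2 was thus lower in shAPC than in shScr at day 3 and higher at day 7, while MMP14 was lower in shAPC at both days, and the intervals of shAPC and shScr overlapped in none of these 4 pairs.

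TIMP1 (ENSG00000102265) lies on the forward strand of chrX:47582408-47586789. It counted 107771, 96901, 93851 and 61303 UMIs, or 2708, 2773, 3005 and 2155 CPM. The shAPC day 7 library was the low one. The log2 ratio of shAPC to shScr was 0.03 (0.02 to 0.05) at day 3, which turned to -0.35 with TMM scaling, and -0.48 (-0.49 to -0.47) at day 7. After thinning, 88.4%, 85.9%, 89.5% and 85.8% of cells had a TIMP1 UMI, and the variance of its UMIs per cell was 12.6 to 18.6 times the mean, so cells differed far more than counting alone gives.

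As for MMP3, shallow cells held more TIMP1 per UMI, at 6788, 7434, 14218 and 14925 CPM against 2685, 2756, 2615 and 1997 in cells of 2000 UMIs or more. In the deep cells alone the shAPC day 7 library was again the low one. MMP3 UMIs per 100 TIMP1 UMIs were 0.132 in shScr day 3, 0.713 in shAPC day 3, 0.439 in shScr day 7 and 1.62 in shAPC day 7.

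TIMP3 (ENSG00000100234), which binds to the matrix, lies on the forward strand of chr22:32801705-32863041. It counted 132, 140, 57 and 31 UMIs, or 3.32, 4.01, 1.83 and 1.09 CPM. Both day 7 libraries lay below both day 3 libraries, with log2 ratios over time of -0.86 (-1.34 to -0.40) in shScr and -1.88 (-2.49 to -1.31) in shAPC. At day 3 the shAPC to shScr ratio was 0.27 with an interval that spans 0 (-0.08 to 0.63), and at day 7 it was -0.74 (-1.42 to -0.09). Without the 1% of cells with the most TIMP3 the day 7 ratio was 0.01.

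Within a library, members were seldom tied to each other cell by cell. The strongest patterns over the 3822 genes of at least 20 CPM in each library were those of TIMP1 and TIMP2, measured by the smallest Pearson r over the 4 libraries, across 673 to 1198 thinned cells that share a library and its depth. For TIMP1 the nearest genes were CYBA (0.270), IGFBP7 (0.238) and CD63 (0.216). For TIMP2 they included FN1 (0.139), which encodes the matrix protein fibronectin, and NEAT1 (0.124). No gene reached 0.1 for MMP2, MMP3, MMP14, TIMP3, PLAU or PLAUR. In thinned cells of shAPC day 3, 3 had a UMI of both PLAU and PLAUR, where the product of the 2 shares gives 4.22 cells.

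Among other genes of the pathway, 2 inhibitors were called in the same comparisons as PLAU. Of 9 other protease inhibitors, 4 were above the minimum level at day 3 and 2 were called higher in shAPC. These were SERPINB2, the urokinase inhibitor PAI-2, at 25.2 against 5.65 CPM, and TFPI2, a serine protease inhibitor, at 52.4 against 24.3 CPM. The TFPI2 log2 ratio was 1.11, so the TMM shift of -0.38 takes it under 2-fold, while SERPINB2 at 2.15 stays over it. SERPINB2 and TFPI2 were called lower from day 3 to day 7 in shAPC, at log2 ratios of -2.08 and -2.17. TFPI2 was not called at day 7 or over time in shScr. At day 7 it was just short of 2-fold lower in shAPC, at 11.6 against 22.5 CPM (log2 ratio -0.96, -1.15 to -0.77), opposite in sign to day 3. SERPINB2 was at 5.65 to 7.81 CPM in the libraries of those 2 comparisons, under the minimum level, and so could not be called there. SERPINE2 was at 131, 182, 165 and 204 CPM. The median log2 ratio of the inhibitors tested was 0.77, -0.35, 0.05 and -1.35 in the day 3, day 7, shScr time and shAPC time comparisons.

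Of the 19 other MMPs none reached 20 CPM in any library. MMP19 was highest at 17.7 CPM in shAPC day 3 against 7.56 in shScr day 3, and MMP17 reached 9.96 CPM. MMP10, MMP13, MMP20 and MMP27 had no UMI in any library, and MMP7 and MMP9 stayed under 0.2 CPM.

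Of 12 AP-1 and ETS factors, 9 were above the minimum at day 3, and JUN (153 against 69.6 CPM) and ETS2 (65.2 against 26.4 CPM) were called higher in shAPC. The TMM shift of -0.38 takes both ratios under 2-fold. Over time in shAPC, JUN (-1.10) and ETS1 (-1.76) were called lower of 9, and none was called at day 7 or over time in shScr. The TMM shift of 0.30 over time in shAPC takes JUN under 2-fold but not ETS1. ELK3 was at 76.7, 87.0, 54.5 and 47.7 CPM. The medians in the 4 comparisons were 0.74, -0.11, 0.13 and -0.85. Of 8 genes of the plasminogen system 6 were above the minimum, and ANXA2 (-1.12) and ENO1 (-1.26) were called lower over time in shAPC and none elsewhere. With the same TMM shift of 0.30, ANXA2 and ENO1 are under 2-fold. S100A10, the partner of ANXA2, was at 1101, 1110, 958 and 612 CPM. PLAT, the other plasminogen activator, was at 30.8, 21.9, 20.8 and 11.0 CPM. The medians were 0.08, -0.50, -0.37 and -0.90.

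Of 11 matrix substrates 8 were above the minimum, and COL1A2 (1118 against 492 CPM) and COL3A1 (87.6 against 34.9 CPM) were called higher in shAPC at day 7, the day at which MMP2 was called. None was called in the other comparisons, and FN1 was at 3676, 3268, 3077 and 2758 CPM and COL1A1 at 1444, 1519, 927 and 1485 CPM. The medians were 0.05, 0.27, -0.32 and -0.14. None of the 6 activation and surface partners above the minimum was called in any comparison (medians 0.12, -0.04, -0.08 and -0.22), nor any of the 5 to 7 such ADAM and ADAMTS genes (medians 0.14, -0.13, -0.23 and -0.38). The partners with the most UMIs were CAV1 (838 to 1058 CPM) and ITGB1 (543 to 766), and the ADAM and ADAMTS genes with the most were ADAM9 (103 to 135) and ADAMTS1 (46.3 to 64.9).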

How the data were processed

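The authors aligned 10x Genomics 3′ reads to hg38 with Cell Ranger and deposited raw UMI counts per gene and barcode for each of the 4 libraries. The labels and the methods differ on the virus (retroviral or lentiviral) and on the kit (v2 or V3), and the annotation release is not given in the sources used here. UMIs of kept barcodes were summed per library with numpy 2.4.6 and scipy 1.17.1. Ratios carry exact conditional binomial (Clopper-Pearson) 95% intervals and CPM exact Poisson intervals. No doublets were removed, no batch correction or imputation was applied, and a fold needed more than 3 UMIs in 1 library. The ratio and call steps were tested on simulated data. TMM factors came from edgeR 4.0.16 and size factors from DESeq2 1.42.0, used for scaling only. The study's own cell set was not recovered, since its cell numbers differ from those kept here. The members and lists were chosen with earlier results of these data known. The genes named are all members, genes of a list past 2-fold or among the 2 with its most UMIs, and the 3 nearest genes of a member where r reached 0.1. PLAT, the undetected or low MMPs, the other cell type markers, CXCL5, CXCL8, DDIT3 and TNFAIP3 were added after their values were seen. A gene that this rule would name is not reported here.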

Additional observations from a re-analysis of the deposited data

Results flagged for a closer look

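TIMP1 and PLAUR were flagged because their shAPC to shScr ratios had opposite signs at the 2 days, and with 1 library per group this difference was not tested. For TIMP1 the log2 ratio was 0.03 at day 3 and -0.48 at day 7. For PLAUR it was 0.32 at day 3 and -0.52 at day 7. Both day 3 values turned negative with TMM scaling.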

How the results depend on the processing

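No paired analysis was possible because the groups compared share fewer than 2 replicate numbers. An additive fit of shRNA and day over the 4 libraries was not run.

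The count of members called at day 3 became 2 without mitochondrial and ribosomal genes in the total, as a mean over cells, with all barcodes, with a 10% mitochondrial limit, without the 5% of cells with the most UMIs, without shared barcodes and with no minimum level, and 0 with a minimum of 100 CPM. At day 7 it became 0 as a mean over cells and at 100 CPM, and 1 with a pseudocount of 5 CPM. Over time in shScr it became 1 without mitochondrial and ribosomal genes and with no minimum level, and 2 as a mean over cells. Over time in shAPC it became 2 with TMM, DESeq2, the median of all genes subtracted, a mean over cells and no minimum, 3 with all barcodes or the 10% limit, and 0 at 100 CPM.

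The median log2 ratio at day 3 became -0.08 with TMM, -0.07 with DESeq2 and 0.01 relative to all genes. At day 7 it became 0.43 without mitochondrial and ribosomal genes and relative to all genes, 0.61 with all barcodes and with the 10% limit, and -0.01 at 100 CPM. Over time in shScr it became 0.47 as a mean over cells and 0.05 at 100 CPM. Over time in shAPC it became -0.06 with TMM and DESeq2, -0.20 without mitochondrial and ribosomal genes, -0.01 as a mean over cells, -0.54 with all barcodes, -0.58 with the 10% limit, -0.47 in cells of 2000 genes, -0.76 without the 5% of cells with the most UMIs, -0.03 relative to all genes and -0.26 at 100 CPM.

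Single ratios turned sign at day 3 with TMM, DESeq2 and relative to all genes for MMP2 (-0.12, -0.10 and -0.01), MMP14 (-0.20, -0.18 and -0.09) and TIMP1 (-0.35, -0.33 and -0.24). TIMP1 was also at -0.07 without mitochondrial and ribosomal genes and -0.04 with all barcodes and with the 10% limit, and PLAUR at -0.06 with TMM, -0.04 with DESeq2 and -0.08 as a mean over cells. At day 7 TIMP3 was at 0.01 without its highest 1% of cells, an alternative added after seeing the data. Over time in shScr, MMP2 was at 0.53 and PLAUR at 0.48 as a mean over cells and TIMP1 at -0.05 in cells of 2000 genes. Over time in shAPC, TIMP1 was at 0.64 as a mean over cells, and TIMP2 at 0.15 with TMM and DESeq2, 0.01 without mitochondrial and ribosomal genes, 0.04 with all barcodes, 0.03 with the 10% limit and 0.18 relative to all genes. The causes were not tested. Of all recomputed ratios of single members, 300 stayed within the counting interval, 148 moved outside it with the same sign and 26 turned sign. MMP1 and TIMP3 are limited by their few UMIs, and the variation between cultures of a group is unknown.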

Other observations

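The 30 cells of shAPC day 3 with the highest PLAU share (of those of 2000 UMIs or more) had TNFAIP3, an inhibitor of NF-kB signalling, at 1082 CPM against 121 in the other cells, CXCL8, a neutrophil chemokine, at 1306 against 194, and DDIT3, a stress transcription factor, at 853 against 144. In shAPC day 7 the same choice of cells gave 381 against 43.8 CPM for TNFAIP3 and 1143 against 150 for CXCL8, and in shScr day 7 359 against 64.5 and 766 against 268. In shScr day 3 the values were 72.2 against 52.3 and 257 against 169. DDIT3 was at 214 against 44.4 CPM in shScr day 7, 112 against 31.2 in shAPC day 7 and 11.7 against 16.6 in shScr day 3. The shScr day 3 value rests on 17 UMIs in the high PLAU cells, so no direction is read from it. ATF3 was at 139 against 40.1 CPM in shAPC day 3 and 16.2 against 2.97 in shAPC day 7, the latter from 13 UMIs in the high PLAU cells. In shScr it was at 0.688 against 1.05 at day 3 and 10.0 against 15.3 at day 7. These rest on 1 and 7 UMIs in the high PLAU cells, too few to read a direction. The cells were chosen by PLAU and the genes after their values were seen, so these values are a description.

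The same values were read for the 30 cells of each library with the highest MMP3 share. TNFAIP3 was lower in them in both shAPC libraries, at 44.9 against 171 CPM at day 3 and 25.7 against 54.3 at day 7, and higher in both shScr libraries, at 67.4 against 52.5 and 93.6 against 70.9. DDIT3 was at 52.7 against 182 and 7.34 against 34.3 CPM in shAPC, at 16.4 against 16.4 in shScr day 3 and at 29.1 against 48.7 in shScr day 7. CXCL8 was at 303 against 167, 246 against 245, 360 against 278 and 255 against 176 CPM in shScr and shAPC at day 3 and then at day 7. CXCL5, another neutrophil chemokine, was higher in the MMP3 cells of all 4 libraries, at 234 against 77.4, 84.7 against 34.0, 198 against 70.8 and 138 against 26.8 CPM in shScr and shAPC at day 3 and then at day 7. These cells held TIMP1 at 5169 against 1902 CPM in shAPC day 7, 4036 against 2592 in shScr day 7 and 3450 against 2655 in shScr day 3, but at 2017 against 2787 in shAPC day 3. They were again chosen by MMP3 and the genes after their values were seen.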
